A study of Homo sapiens with 4 samples.

Results

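The genes described here encode solute carriers (SLC) that move inorganic ions across membranes by exchange or cotransport. They comprise the bicarbonate transporters (SLC4), the sodium/calcium exchangers (SLC8 and the potassium-dependent SLC24), the sodium/proton exchangers (SLC9), the cation-chloride cotransporters (SLC12), the multifunctional anion exchangers (SLC26) and the sodium-phosphate cotransporters (SLC20 and SLC34). Membership went by name, under a rule set with earlier results of these data known. A probe set belonged when the platform annotation gave it a single gene symbol of these 8 subfamilies. This found 43 genes, and SLC9C2 was added through its older SLC9A name. These 44 genes were measured by 102 probe sets, among 19775 genes with a probe set of their own on the array. Members of the same subfamilies without such a probe set were not analysed here.

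These carriers set cell volume, intracellular pH, and the chloride, calcium and phosphate content of cells. The gradients that they use are built largely by the sodium pump, and many are regulated by phosphorylation, by scaffold proteins that hold them at the apical membrane, and by carbonic anhydrases that supply bicarbonate. In liver, bicarbonate and chloride exchange accompanies bile formation, while in intestine and kidney the same families carry out absorption and secretion at the brush border.

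Expression was compared between cells of the human hepatocellular carcinoma line Huh7 that were sorted by flow cytometry for the surface protein CD133 (CD133+) and the sorted cells without it (CD133-). Each population has 1 column of RMA and 1 of MAS5 values. The labels of these columns differ only in the algorithm and do not say whether they share an array. They were taken as 2 summaries of 1 array and never as replicates, so each group held 1 sample. Replicate error could therefore not be estimated, no test was possible, and every difference below describes these arrays only. In a sorted bulk population, fewer cells expressing a gene and less RNA per cell cannot be told apart. Both groups were cells of 1 line in culture, and no treatment, time or allele is named in the labels.

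Values are RMA values on the log2 scale, and differences are CD133+ minus CD133- unless MAS5 is named. Where a gene had several probe sets, the one with the highest RMA mean over both arrays stood for it. It was called detected when the brighter array exceeded 4.86, the median of the brighter value across the array's probe sets. The floor ranks brightness and does not test for presence. Probe sets differ in how brightly they respond, so the levels of different genes are not compared. As the available measure of technical spread, the differences of probe sets of the same gene above the floor had a standard deviation (SD) of 0.17 over 16955 pairs, and of 0.18 over the 18 pairs within 10 members. Variation from sort to sort or from culture to culture is not part of it.

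The sort marker PROM1, which encodes CD133, had RMA values of 10.49 in CD133+ and 5.33 in CD133- cells, in the direction of the labels. All 7 measured markers of the hepatocyte lineage were detected and differed by -0.10 to 0.55, with summed MAS5 signals of 219651 and 211400. Of 4 blood cell markers 3 were detected, of 3 endothelial markers 2 and of 4 stromal markers 1. Their summed MAS5 signals were 368 and 406, 290 and 295, and 639 and 661, in CD133+ and CD133- cells respectively. PTPRC, the common leukocyte antigen, lay below the floor, with RMA values of 2.32 and 2.43.

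Most ion carriers had similar values in both populations, and those that differed by 0.5 or more were higher in CD133+ cells. Of the 44 genes, 23 were detected, 52.3% against 65.2% of all genes. The chloride/bicarbonate exchanger gene SLC26A3 was the only detected member at least 2-fold higher, 1 of 23, beside 1.65% of the 12899 detected genes. None was at least 2-fold lower, where 0.116% of all detected genes were. The genes SLC26A3, SLC26A2 and SLC12A2 were higher by at least 0.5, 3 of 23 beside 4.67% of detected genes, and all 3 passed the same size by MAS5, where 4.06% of detected genes passed it by both algorithms. No member was lower by 0.5 or more, a size that 1.56% of all detected genes reached. Of any size, 13 members were higher, 9 lower and 1 equal, and the share higher of 56.5% stood beside 45.6% among all detected genes.

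The median difference of the 23 detected members was 0.09, against -0.01 over all detected genes. Their range ran from -0.41 for SLC4A4 to 2.19 for SLC26A3, and 17 of the 23 (73.9%) lay within 0.25 of zero, as did 78.2% of all detected genes. Among 227 other detected SLC genes, carriers of sugars, amino acids and other solutes included, 7 were at least 2-fold higher, 0 were at least 2-fold lower, and the median was -0.02. No difference between these sets was tested.

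**Figure D1:**
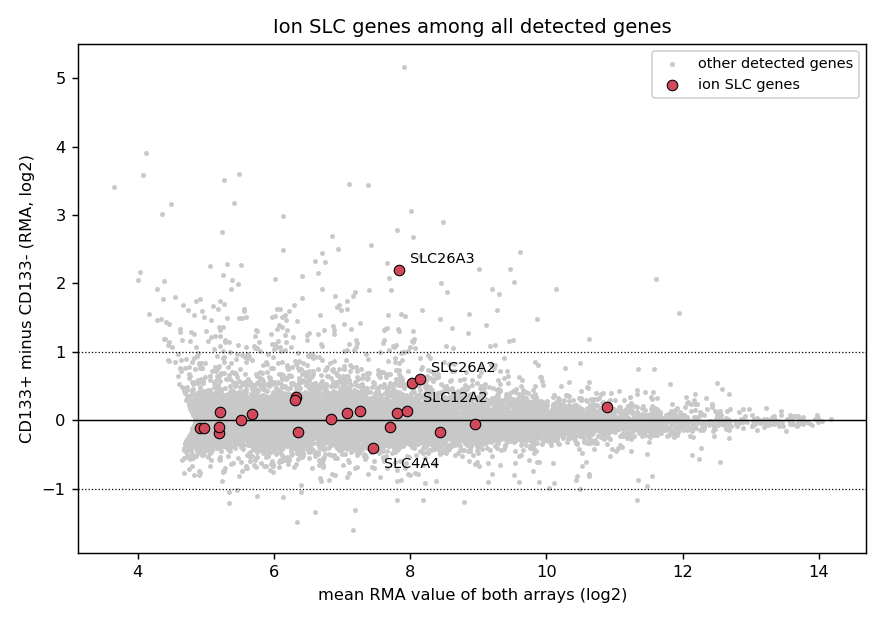
Difference between the populations (vertical axis, log2) against the mean RMA value of both arrays (horizontal axis, log2) for the 12899 detected genes, each a grey point, with the 23 detected ion SLC genes in red. Dotted lines mark 2-fold. SLC26A3 lies at 2.19 and the other members between -0.41 and 0.60.

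**Figure D2:**
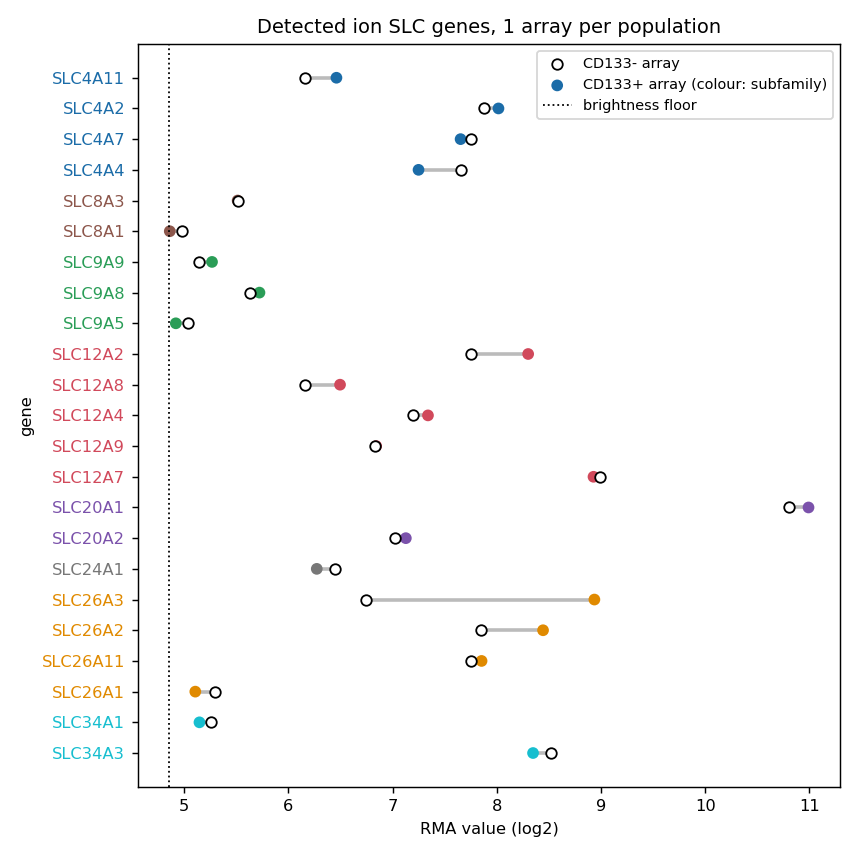
RMA value (horizontal axis, log2) of each detected member in CD133- cells (open circles) and CD133+ cells (filled circles, coloured by subfamily), with 1 array per population and no error bars. The dotted line is the brightness floor of 4.86. The longest bar joins the SLC26A3 values of 6.75 and 8.94.

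The anion exchangers of the SLC26 family held the members of largest difference. SLC26A3, known as DRA (down-regulated in adenoma), exchanges chloride for bicarbonate at the apical membrane of the gut and underlies congenital chloride diarrhoea. Its RMA value was 8.94 in CD133+ and 6.75 in CD133- cells, a 4.56-fold difference, with both values above the floor. By MAS5 the signals were 2270 and 517, a 4.39-fold difference. Among the 12899 detected genes, SLC26A3 had the 33rd largest positive difference. Its second probe set lay below the floor on both arrays, with RMA values of 3.30 and 2.45 and MAS5 signals of 86.7 and 25.9, and differed in the same direction by 0.85.

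Intestinal markers were higher in the same population as SLC26A3. All 4 were detected and higher in CD133+ cells, beside 45.6% of all detected genes. The lowest differences were those of VIL1 (villin, an actin bundler of microvilli) at 0.38 and the intestinal transcription factor gene CDX2 at 0.69. The cadherin gene CDH17 differed by 2.21 and the disaccharidase gene SI by 2.78. Their summed MAS5 signals were 16651 and 6007. Both RMA values of each marker lay above the floor on the probe set used here. A second CDX2 probe set was below the floor, with values of 3.95 and 4.05, the other direction. These 4 markers do not stand for all intestinal genes, and their part in the SLC26A3 difference was not tested.

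SLC26A2 encodes the widely expressed sulfate transporter that feeds proteoglycan sulfation and is mutated in diastrophic dysplasia. It had RMA values of 8.44 and 7.85, a 1.51-fold difference, and MAS5 signals of 1715 and 1130. Its 3 probe sets, all above the floor, were higher by 0.60, 0.64 and 0.65, a range narrower than the spread between probe sets of 1 gene. The remaining detected members of the family differed less. SLC26A11, a lysosomal and plasma membrane anion transporter, had values of 7.85 and 7.75. SLC26A1, a sulfate and oxalate exchanger of liver and kidney, had values of 5.11 and 5.30, a difference of -0.19, and its MAS5 signals of 16.4 and 27.2 lay below the MAS5 floor of 91.8. SLC26A4, SLC26A6, SLC26A8 and SLC26A9 were below the RMA floor in both populations on the probe set used here.

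Among the cation-chloride cotransporters, SLC12A2 differed most. It encodes NKCC1, which brings sodium, potassium and chloride into the cell and supplies the chloride for epithelial secretion. Its RMA values were 8.30 in CD133+ and 7.75 in CD133- cells, a 1.46-fold difference, and its MAS5 signals were 2336 and 1329. Both of its probe sets were above the floor and were higher, by 0.55 and 0.60. The potassium-chloride cotransporters, which carry chloride out of the cell, differed little: SLC12A4 (KCC1) had values of 7.34 and 7.20, and SLC12A7 (KCC4) values of 8.93 and 8.99.

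By MAS5, the SLC12A4 difference was 0.68, with signals of 324 and 202, larger than the 0.14 by RMA. Its 3 probe sets above the floor differed in sign by RMA, from -0.03 to 0.14. SLC12A8 had values of 6.50 and 6.16, a difference of 0.33 by RMA and 0.32 by MAS5. SLC12A9 had values of 6.84 and 6.83. The kidney cotransporter genes SLC12A1 (NKCC2) and SLC12A3 (NCC) and the neuronal SLC12A5 (KCC2) were below the floor in both populations.

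The sequences before the starts of the 3 members higher by 0.5 or more, and of the lowest member for contrast, are shown because these are the genes on which the comparison turns. They are the 250 bases before each gene's annotated start, from RefSeq on GRCh38.p14, in the gene's direction. The array files name no genome build. The windows lie at chr7:107803224-107803473 on the minus strand for SLC26A3, chr5:149960508-149960757 on the plus strand for SLC26A2, chr5:128083516-128083765 on the plus strand for SLC12A2 and chr4:71062410-71062659 on the plus strand for SLC4A4. Capitals mark matches, on either strand, to any of 5 short motifs: the TATA box (TATAAA), the CCAAT box, the GC box (GGGCGG), the core of a CDX site (TTTATG) and the core of an HNF1 site (GTTAAT). No match overlapped another in these windows.
SLC26A3: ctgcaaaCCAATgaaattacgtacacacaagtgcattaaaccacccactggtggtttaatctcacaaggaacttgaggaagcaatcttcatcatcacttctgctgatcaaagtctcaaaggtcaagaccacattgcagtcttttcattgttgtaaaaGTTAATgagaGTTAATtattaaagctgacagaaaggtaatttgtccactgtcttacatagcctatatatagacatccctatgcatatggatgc
SLC26A2: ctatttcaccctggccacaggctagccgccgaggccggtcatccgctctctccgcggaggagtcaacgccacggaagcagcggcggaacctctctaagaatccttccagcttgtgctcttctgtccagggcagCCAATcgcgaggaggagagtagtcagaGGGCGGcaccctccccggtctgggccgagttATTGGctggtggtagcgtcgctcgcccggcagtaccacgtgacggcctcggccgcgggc
SLC12A2: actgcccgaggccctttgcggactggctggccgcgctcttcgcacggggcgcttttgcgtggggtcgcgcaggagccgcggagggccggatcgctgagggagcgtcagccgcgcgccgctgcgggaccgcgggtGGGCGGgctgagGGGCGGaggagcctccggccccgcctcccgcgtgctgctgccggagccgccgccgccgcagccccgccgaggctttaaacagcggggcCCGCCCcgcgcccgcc
SLC4A4: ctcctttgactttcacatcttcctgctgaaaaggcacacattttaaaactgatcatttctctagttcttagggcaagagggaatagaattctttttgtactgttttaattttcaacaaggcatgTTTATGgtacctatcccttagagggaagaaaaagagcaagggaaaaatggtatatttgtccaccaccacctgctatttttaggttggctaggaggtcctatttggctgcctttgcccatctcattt

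The SLC26A3 window, with 37.6% G and C, held 2 HNF1 cores, starting 93 and 83 bases before the gene's start, and 1 CCAAT box. That of SLC26A2, with 66% G and C, held 2 CCAAT boxes and 1 GC box, and that of SLC12A2, with 79.6%, held 3 GC boxes. The SLC4A4 window, with 39.2%, held 1 CDX core. The median over 27305 such windows was 58%. The HNF1 core occurred in 6.22% of these windows, the CCAAT box in 33.0%, the GC box in 42.3%, the CDX core in 10.0% and the TATA box in 11.1%. Of the 44 members, 38 had a window in the table, and 3, 13, 15, 3 and 6 of them held these motifs in the same order. None of the 5 motifs occurred in all 3 higher members, and a match is a description of letters, not of a bound site.

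SLC4 bicarbonate transporters differed in both directions, none by 0.5. SLC4A4, the electrogenic sodium-bicarbonate cotransporter NBCe1, was the lowest detected member, with RMA values of 7.25 in CD133+ and 7.66 in CD133- cells, 1.33-fold lower. Its MAS5 signals were 828 and 1089, a difference of -0.40. It ranked 359th from the lowest of the 12899 detected genes. Of its 5 probe sets, a second was above the floor in CD133+ cells only and was at least 1.03-fold higher there, the other direction, and the 3 below it differed by -0.28, -0.29 and -0.49.

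SLC4A11, a proton-conducting member of the family that is linked to corneal dystrophy, had values of 6.46 and 6.16, a difference of 0.30. Its second probe set above the floor differed by -0.09. SLC4A2, the anion exchanger AE2 of bile duct and many other cells, had values of 8.02 and 7.88 on its only probe set. SLC4A7, the sodium-bicarbonate cotransporter NBCn1, had values of 7.65 and 7.75, and its other probe set above the floor differed by 0.05. The differences of SLC4A2 and SLC4A7 were smaller than the spread between probe sets of 1 gene. SLC4A1 (the red cell band 3), SLC4A3, SLC4A5, SLC4A8, SLC4A9 and SLC4A10 were below the floor in both populations.

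Sodium/proton exchangers gave dim and similar values. SLC9A8, which resides mainly in the Golgi and apical membrane, had RMA values of 5.72 and 5.64 and MAS5 signals of 255 and 245. SLC9A9, an endosomal exchanger, had values of 5.27 and 5.15, and SLC9A5, best known from brain, had values of 4.92 and 5.04. By MAS5 both signals of the latter genes lay below the MAS5 floor. SLC9A3, the absorptive NHE3 of gut and kidney, had RMA values of 4.48 and 4.60, below the floor. SLC9A2 and SLC9C2 were also below it in both populations.

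Of 7 sodium/calcium exchanger genes, 3 were detected, and none of these differed by 0.25 or more by RMA. SLC8A1, the cardiac-type exchanger NCX1, was the detected member closest to the floor, with values of 4.86 and 4.98, and 10 of its 11 probe sets lay below. By RMA its difference was -0.12, whereas its MAS5 signals were 11.3 and 96.4, a difference of -3.09 in which only the CD133- signal exceeded the MAS5 floor. SLC8A3 (NCX3) had the same RMA value of 5.51 in both populations. SLC24A1, the potassium-dependent exchanger first described in rods, had values of 6.27 and 6.45, and across its 3 probe sets above the floor the difference ran from -0.18 to 0.09. SLC8A2, SLC24A2, SLC24A3 and SLC24A4 were below the floor in both populations.

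Phosphate cotransporters were close to equal. SLC20A1 and SLC20A2 encode PiT-1 and PiT-2, the housekeeping sodium-phosphate cotransporters that also serve as retrovirus receptors. SLC20A1 had RMA values of 10.99 and 10.80 and MAS5 signals of 10006 and 8589, and both probe sets were higher, by 0.19 and 0.29. SLC20A2 had values of 7.13 and 7.02 on the probe set used here, but on the others above the floor the differences were -0.27 and -0.31, so its direction depended on the probe set. SLC34A3, a renal phosphate cotransporter, had values of 8.35 and 8.52 by RMA, a difference of -0.17, and MAS5 signals of 523 and 501, the opposite direction. SLC34A1, the main renal phosphate cotransporter, had values of 5.15 and 5.26. The epithelial SLC34A2 was below the floor, with values of 3.92 and 3.71.

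Several probe sets above the floor were available for 10 members. Those of SLC12A2, SLC12A9, SLC20A1 and SLC26A2 were all higher in CD133+ cells, and those of the other 6 genes differed in sign. The SLC12A9 differences, 0.01 and 0.14, were smaller than the spread between probe sets of 1 gene, so their direction is not readable. The larger of them also rests on a CD133- value below the floor. Between its highest and lowest difference, SLC20A2 spanned 0.42 and SLC4A11 0.39. SLC4A4 spanned 0.68 in the values as measured, which rest in part on a CD133- value below the floor. The narrowest were SLC26A2 with 0.05 and SLC12A2 with 0.06, the genes of largest difference after SLC26A3.

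**Figure D3:**
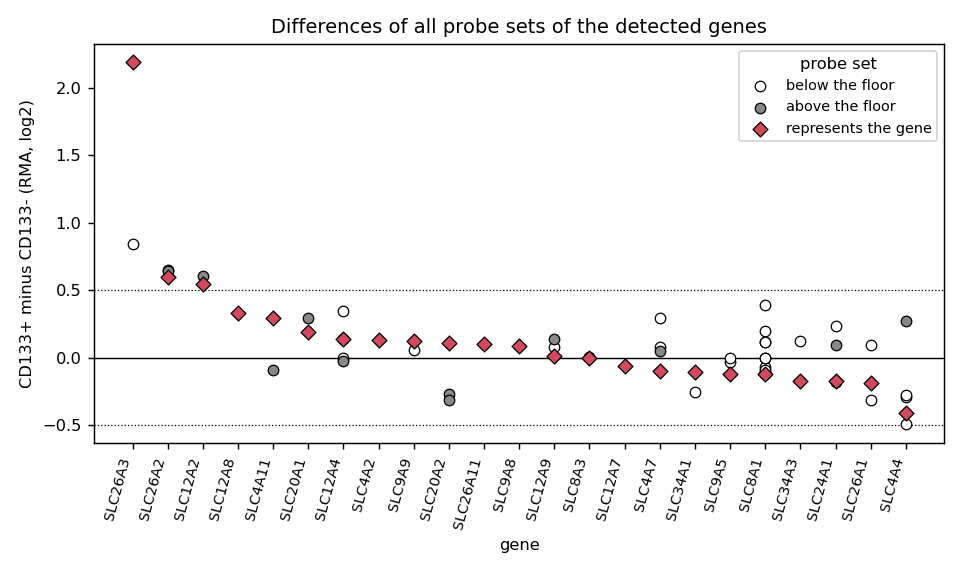
Difference between the populations (vertical axis, RMA, log2) of every probe set of the 23 detected members, ordered by the difference of the probe set that represents the gene (red diamonds). Grey circles are other probe sets above the floor, open circles those below it, and dotted lines mark 0.5 in each direction. The 3 SLC26A2 and 2 SLC12A2 probe sets lie together above 0.5, and those of SLC4A4 on both sides of zero.

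The algorithms placed 19 of the 23 detected members on the same side of zero. Among the 17 members with both MAS5 signals above the MAS5 floor, 15 had the same direction, and SLC12A7 and SLC34A3 had opposite ones. Both summaries were taken to come from the same arrays, so their agreement was not counted as independent. The widest gap between them was that of SLC8A1, and 5 of the 23 members had both MAS5 signals below the MAS5 floor.

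**Figure D4:**
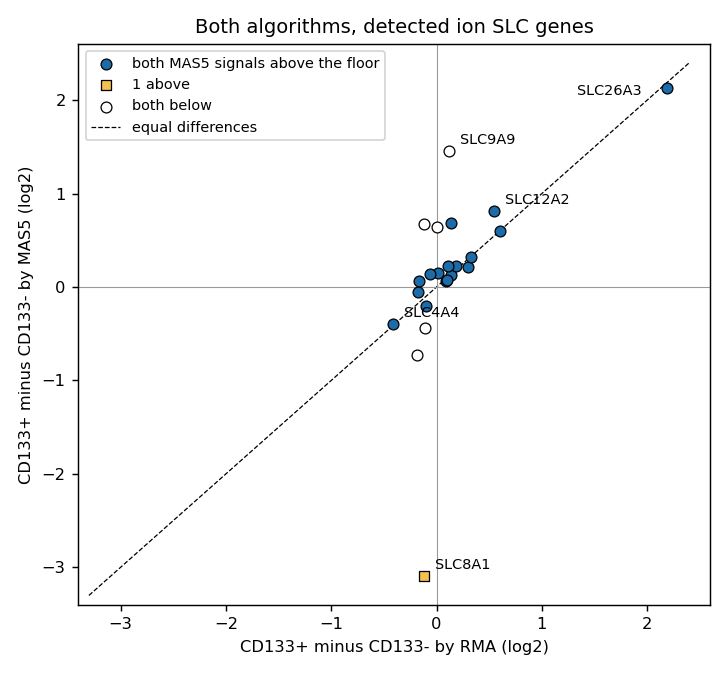
Difference between the populations by MAS5 (vertical axis, log2) against that by RMA (horizontal axis, log2) for the 23 detected members, with the dashed line of equal differences. Fill marks whether the MAS5 signals exceeded the MAS5 floor of 91.8. SLC26A3 lies near the line at 2.19 and 2.13, and SLC8A1 far from it at -0.12 and -3.09.

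Genes that regulate, scaffold or supply these carriers were examined as 5 further lists. Of their 60 genes, 54 were measured and 41 detected. By measured values 3 were at least 2-fold higher and 0 lower, beside 1.65% and 0.116% of all detected genes. CA4 and FXYD3 were above the floor in both populations, and CFTR in CD133+ cells only. The median difference was 0.08, against -0.01 over all detected genes. Of the 41 genes, 24 were higher and 15 lower, where 45.6% of all detected genes were higher.

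Kinases and adaptors of the chloride cotransporters had a median of 0.01 over 11 detected genes, with 2 higher and 1 lower by at least 0.5, sizes that 4.67% and 1.56% of all detected genes reached. STK39 encodes SPAK, the kinase that phosphorylates and activates NKCC1. It had RMA values of 8.32 and 7.43, a 1.85-fold difference, and MAS5 signals of 1493 and 861. SGK1, a kinase that promotes sodium and chloride transport, had values of 9.60 and 8.79. The upstream kinase gene WNK4 was lower, with values of 6.62 and 7.14, although its other probe set above the floor differed by 0.05. WNK1, which acts at the same step, had values of 9.36 and 9.68, and OXSR1, the relative of STK39, values of 8.72 and 8.76.

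Among scaffolds and exchanger partners, 6 of 7 detected genes were higher, beside 45.6% of all detected genes, with a median of 0.16. CFTR, the apical chloride and bicarbonate channel that works beside SLC26 exchangers, had RMA values of 5.24 and 4.07. Since the CD133- value lay below the floor, it was at least 1.31-fold higher. Its other 5 probe sets were below the floor and differed by 0.00 to 0.82. PDZK1, a scaffold of apical transporters, had values of 7.87 and 7.20, while the scaffold gene NHERF1 had values of 9.40 and 9.32. TESC, a calcium-binding protein that binds sodium/proton exchangers, was lower, with values of 7.62 and 8.25.

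Carbonic anhydrases interconvert carbon dioxide and bicarbonate. CA4, the membrane-anchored form that works beside bicarbonate transporters, had RMA values of 8.73 and 6.65, a 4.23-fold difference. By MAS5 its signals were 2386 and 531. The second CA4 probe set differed by 1.77 by RMA. The other detected anhydrases went both ways: CA13 was higher by 0.63 and CA5A lower, at -0.55, while CA2 and CA12 differed by -0.28 and -0.30. The list median was -0.24 over 8 detected genes, 3 of them higher and 5 lower, where 45.6% of all detected genes were higher.

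Of the sodium and calcium pump list, 9 genes were detected, with a median of 0.08. FXYD3, a small regulator of the sodium pump, had values of 7.94 and 6.20, a 3.33-fold difference. The second FXYD3 probe set differed by 0.62. The sodium pump beta subunit genes ATP1B1 and ATP1B3 differed by 0.34 and 0.23. The plasma membrane calcium pump genes ATP2B4 and ATP2B2 differed by 0.52 and -0.48. In the phosphate list, 6 genes were detected, 3 higher and 3 lower, beside 45.6% higher among all detected genes, with a median of -0.07. The pyrophosphate-generating enzyme gene ENPP1 was lowest, with values of 7.86 and 8.53, and all 4 of its probe sets were lower. ANKH, a membrane protein of pyrophosphate and ATP release, was highest, with values of 7.75 and 7.54. XPR1, the phosphate exporter, had values of 8.53 and 8.36.

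**Figure D5:**
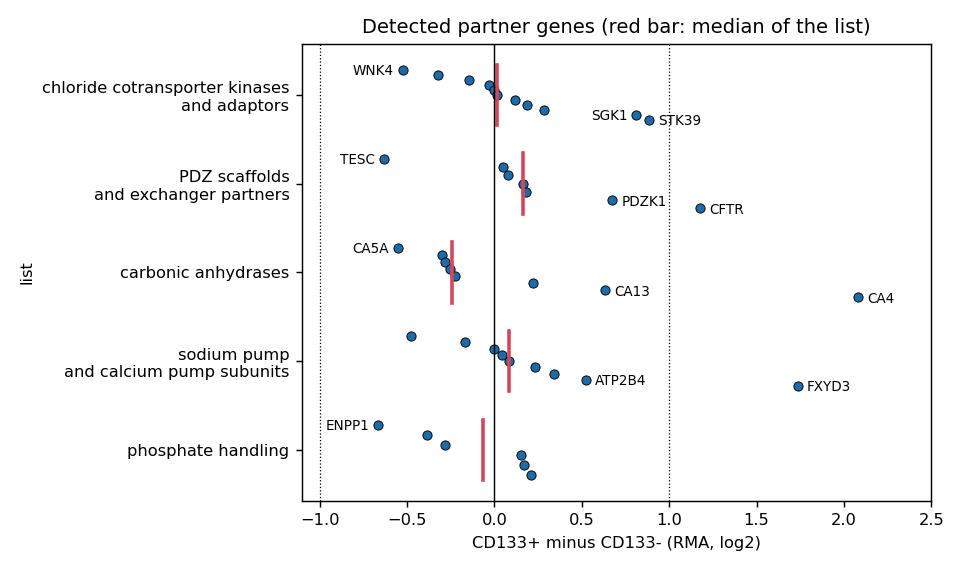
Difference between the populations (horizontal axis, RMA, log2) of the 41 detected genes of 5 partner lists, with the list median as a red bar, dotted lines at 2-fold and names for genes that differ by 0.5 or more. CA4 at 2.08 and FXYD3 at 1.74 lie beyond the upper line, as does CFTR at 1.17 as measured, whose CD133- value was below the floor, and no gene lies beyond the lower line.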

How the data were processed

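Gene expression was measured by array in CD133+ and CD133- cells sorted from Huh7. The deposited table has, per the labels, 1 column of MAS5 values and 1 of RMA values for each population. The deposited values show MAS5 signal intensity on a linear scale and RMA on a log2 scale. The columns of a population were taken as 1 array, which the labels do not state. The submitters' processing notes name MAS5 and GCOS but no version. The software behind RMA is not given in the sources used here. With 2% trimmed off at either end, the MAS5 signals averaged 500.1 on each array, and RMA includes quantile normalization, so a global shift between the populations would not be seen.

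Of 54675 probe sets, 41097 had exactly 1 gene symbol, 1801 several and 11777 none in the platform annotation. Symbols were updated by Entrez number to GRCh38.p14 for 41043. Differences were computed with Python 3.11.15, pandas 2.3.3 and numpy 2.4.6 and checked on simulated data. With 1 array per group no test was run, and the number of arrays limits precision. A gene was counted at 2-fold or at 0.5 (log2).

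Members, partner lists and alternatives were chosen with earlier results of these data known. The text names every detected member, members below the floor by name, and partner genes at 2-fold or the extremes of a list. STK39, SGK1 and other partners named beside them were added for their role, after their values were seen, as was the choice of motifs. The alternatives were MAS5, MAS5 with 50 added, both algorithms together, other floors, the mean over probe sets, probe sets without _x_at and _s_at, and centring.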

Additional observations from a re-analysis of the deposited data

How the results depend on the processing

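With 1 array per population no array could be left out, and no paired analysis was possible because each group held 1 array. Across the RMA alternatives (no floor, a floor at the 60th percentile, both populations above the floor, the mean over probe sets, without _x_at and _s_at probe sets, and centring) and with both algorithms together, 1 member stayed at least 2-fold higher, 0 lower, 3 were higher by 0.5 and 0 lower by 0.5. The members counted ran from 16 (mean over probe sets) to 44 (no floor). Over all genes, the share at least 2-fold higher ran from 1.13% to 1.68%, and the share at least 2-fold lower from 0.0809% to 0.134%. The share higher by 0.5 ran from 3.69% to 4.83%, and the share lower by 0.5 from 1.24% to 1.81%. The median of the members lay between 0 (no floor) and 0.11, against 0.09. With MAS5 in place of RMA, 20 members passed the MAS5 floor. Then 2 were at least 2-fold higher (SLC26A3 and SLC4A8), 1 at least 2-fold lower (SLC8A1) in the signals as measured, 5 higher by 0.5 and 2 lower by 0.5, with a median of 0.15. The dimmer signals of SLC4A8 and SLC8A1 lay below the MAS5 floor, so neither is shown to differ 2-fold above it. Over all genes the shares at least 2-fold higher and lower were then 4.47% and 1.71%. The shares of all genes higher and lower by 0.5 were 12.02% and 7.13% with MAS5. With 50 added to each MAS5 signal, 1 member was at least 2-fold higher, 1 at least 2-fold lower, 5 higher by 0.5 and 1 lower by 0.5. Over all genes past the MAS5 floor, these shares were 2.79%, 0.669%, 9.54% and 5.08%, in the same order. The cause of the changed counts was not tested. With the mean over probe sets, which brings in its probe set below the floor, the SLC26A3 difference was 1.52. Without _x_at and _s_at probe sets, SLC4A7 was left with a probe set below the floor on both arrays (difference 0.30, in place of -0.10) and was no longer detected. SLC8A1, SLC9A5 and SLC12A9 were likewise left with probe sets below the floor, and 19 members remained detected.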

Other observations

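Transcripts related to these carriers but outside the naming rule differed little. They comprised 31 probe sets, of which 17 lay above the floor, 0 of them differing by 0.5 or more. Few genes reached that size in any case: 4.67% of all detected genes were higher by it and 1.56% lower. SLC8B1, the mitochondrial sodium/calcium exchanger, had RMA values of 6.09 and 6.16 in CD133+ and CD133- cells, and of 5.21 and 5.01 on its other probe set, the opposite direction. SLC9B2, a sodium/proton antiporter, was lower on both probe sets, by -0.19 and -0.21. SLC9D1, also known as TMCO3, had values of 9.32 and 9.29. A probe set that the annotation assigns to both SLC26A6 and MIR6824 had values of 7.86 and 7.78, above the floor, whereas the probe set of SLC26A6 alone lay below it.

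By measured values, the divergent transcripts of SLC12A2 and SLC20A1 were lower in CD133+ cells, while their neighbours were higher. SLC12A2-DT, transcribed away from SLC12A2, differed by -0.03 and -0.10 on its probe sets above the floor, beside 0.55 and 0.60 for SLC12A2. Both SLC12A2-DT differences were smaller than the spread between probe sets of the same gene, so their direction is not readable. SLC20A1-DT had values of 4.97 and 5.27, close to the floor, a difference of -0.30, beside 0.19 and 0.29 for SLC20A1. These differences were not tested.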
